A study of Homo sapiens with 6 samples.

Results

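The ATF4 amino acid stress response comprises 43 genes chosen by name, with earlier results of these data known. They are ATF4, its partner and target transcription factors, stress effectors and secreted factors. The rest are enzymes of amino acid and folate metabolism, amino acid transporters, and kinases of the translation factor eIF2. All 43 were found among the 19775 genes that had a probe set with a single gene symbol, and the probe set with the highest mean signal over the 6 arrays stood for each gene. The tested cells were U87-2M1 cells transduced with a baculoviral miR-10b decoy vector (3 arrays), and they were set against U87-2M1 cells transduced with a baculoviral control decoy vector (3 arrays). A decoy is an RNA with binding sites that draw a microRNA off its natural targets, and miR-10b is a microRNA abundant in glioma. Both groups were passage 4 cells of one invasive subline of the human glioma line U87, which had been recovered from a lung metastasis assay and grown in hypoxia, so hypoxia and baculoviral transduction were shared by all 6 arrays. Whether the replicates came from separate cultures is not stated in the labels. The p-values set each group difference against the spread within these samples, estimated in part from other genes, and that spread may be technical.

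ATF4 is the central transcription factor of the integrated stress response. Kinases that sense amino acid shortage, misfolded protein in the endoplasmic reticulum (ER) or lack of heme phosphorylate eIF2, which lowers general translation while the ATF4 message is translated more. With C/EBP family partners ATF4 then binds a composite promoter element and raises genes for amino acid synthesis, uptake and tRNA charging, and factors it induces, such as DDIT3 and TRIB3, modify or end the response. The arrays measured transcripts only, and ATF4 protein and eIF2 phosphorylation were not measured here.

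The arrays were Affymetrix probe sets with MAS5 signals. The deposited arrays were not on a common scale, the mean signal trimmed by 2% at each end being 192 on control replicate 3 and 155 to 163 on the other 5 arrays. Signals below are therefore quantile normalized, and differences are on the log2(signal + 7) scale, miR-10b decoy minus control decoy, which understates the change of dim genes. For actin, the ratio of 3' to 5' probe set signal, which climbs as RNA degrades, was 8.54 ± 1.77 with the miR-10b decoy and 5.73 ± 0.47 with the control decoy (SD, n = 3 each, two-sided exact permutation test, p = 0.1, which is the lowest value possible with 3 against 3). The same ratio for GAPDH averaged 0.943 with the miR-10b decoy and 0.945 with the control decoy. Of the glial markers VIM, CD44, NES, CHI3L1 and SOX2 lay above the filter level, whereas GFAP, S100B, OLIG2, FABP7 and AQP4 did not. NES was the only one called, lower. OLIG2 was dim and not tested, with 19.7, 19.7 and 29.9 with the miR-10b decoy and 0.81, 5.23 and 7.80 with the control decoy. The summed signal of the 10 glial markers ran from 19437 to 19698 with the miR-10b decoy and from 19236 to 19892 with the control decoy. Most of that sum was VIM (mean 9932 with the miR-10b decoy and 9937 with the control decoy) and CD44 (7571 and 7517). It therefore says little about the other glial markers. All 3 neuronal markers above the filter level (SNAP25, MAP2 and TUBB3, with RBFOX3 and SYP below it) were lower. The list summed to 3680 to 3828 with the miR-10b decoy and 4392 to 4596 with the control decoy, most of it TUBB3 (means 3233 and 3662). Endothelial markers were lower for 2 of 3 above that level (PECAM1 and TEK), with sums of 207 to 214 and 253 to 324, VWF and CDH5 lying under it. Leukocyte, epithelial and oligodendrocyte markers gave no call, PTPRC, EPCAM and MOG lying under the filter level. The part of these differences in the results below was not tested, and in bulk RNA a change in the share of cells cannot be told apart from a change in RNA per cell.

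With the miR-10b decoy the transcription factors of the response and most of its secreted factors were higher, while the 3 kinases among the members were lower (EIF2AK1 only in 6 of 16 alternatives) and most of the biosynthetic enzymes were lower or did not pass the test. EIF2AK2, an eIF2 kinase outside the members, was higher. Of the 42 members tested (SLC6A9 fell under the filter on dim genes), 18 were higher, 10 were lower and 14 did not pass limma's test at an adjusted p of 0.05. The shares of 42.9% higher and 23.8% lower among members stand beside 16.6% higher and 17.3% lower among all 13842 tested genes, of which 33.9% passed in either direction. Since the members were chosen with earlier results of these data known, their shares only describe them. All 8 transcription factors and 3 of 4 secreted factors were higher. Among 11 enzymes 1 was higher and 4 were lower, and all 3 kinases were lower. The transporters split, 3 higher and 1 lower of 8 tested, as did the stress effectors, 3 higher and 2 lower of 8. In 19 members (45.2%) every miR-10b decoy array lay above every control array, against 22.4% of all tested genes, and in 11 members (26.2%) every one lay below, against 24% of all. The median log2 difference was 0.56 for the factors, 1.11 for the secreted factors and -0.19 for the enzymes, beside -0.02 for all tested genes.

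**Figure D1:**
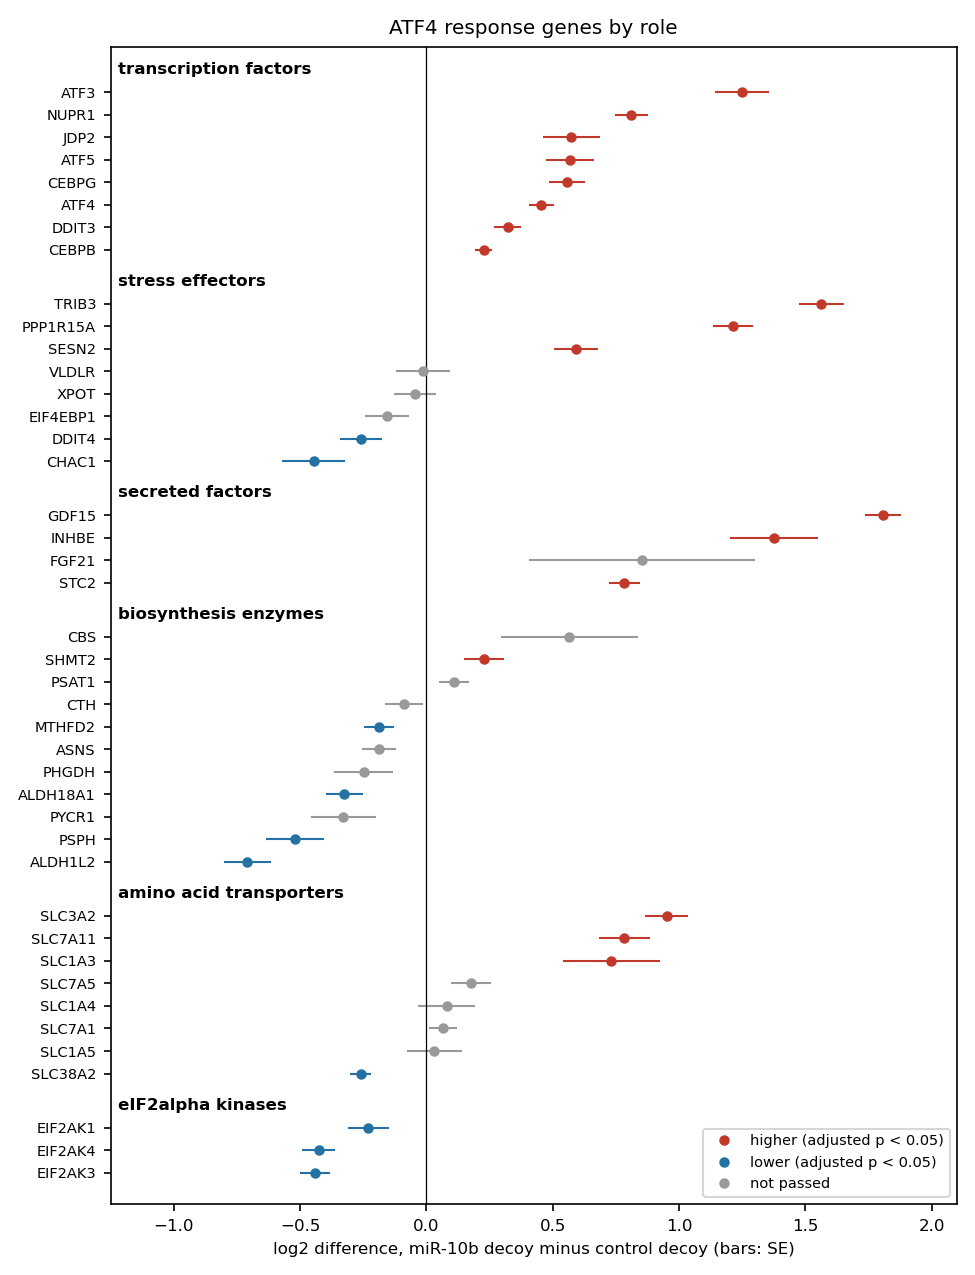
Log2 difference in signal (miR-10b decoy minus control decoy, horizontal axis) with its SE for the 42 tested members, grouped by role. Red marks genes higher and blue genes lower at a limma adjusted p under 0.05, and grey those that did not pass; all 8 transcription factors lie to the right of 0 and all 3 kinases to the left.

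Scaling bore on the smaller differences. As deposited, the median of all genes was -0.14, and 1094 genes were higher and 2561 lower. Quantile normalized signals gave 2299 higher and 2398 lower, and signals centred on each array's median gave 2866 higher and 1737 lower. Member counts were 14 higher and 9 lower as deposited and 18 higher and 8 lower after centring, beside 18 higher and 10 lower after quantile normalization. Of these 10 lower members 8 kept the call as deposited. MTHFD2 and EIF2AK1 lost it, and PYCR1 gained one. The 4 higher members whose call ended as deposited were ATF4 (adjusted p = 0.081), DDIT3 (adjusted p = 0.384), CEBPB (adjusted p = 0.627) and SHMT2 (adjusted p = 0.467), each still with a positive difference. Relative to the median of all genes these 4 had 0.42, 0.30, 0.23 and 0.28 as deposited, and 0.47, 0.34, 0.25 and 0.25 after quantile normalization.

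**Figure D2:**
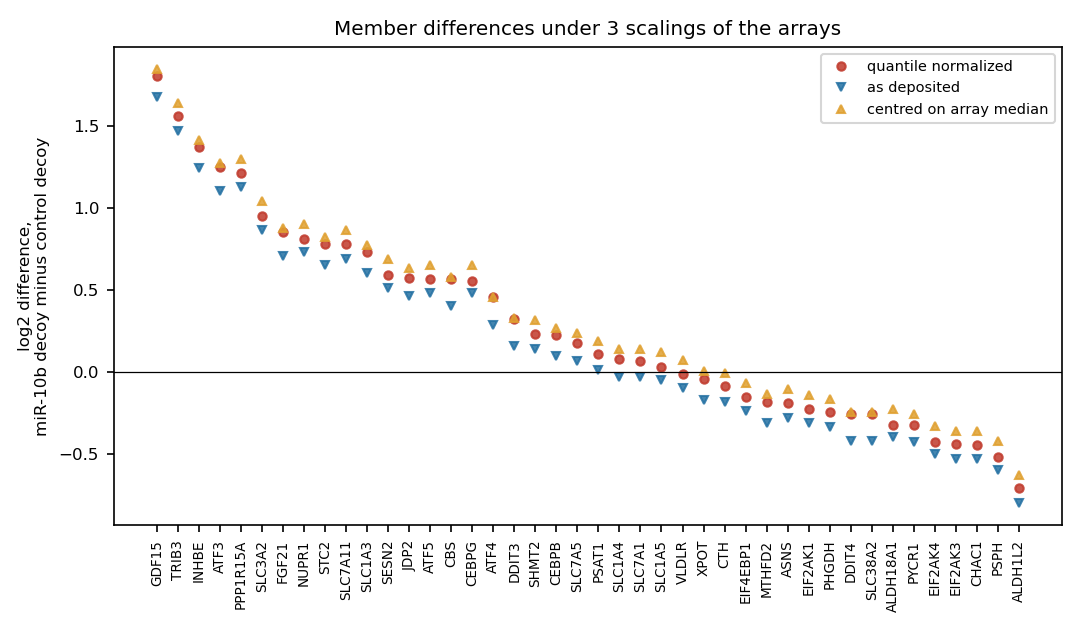
Log2 difference of each tested member (vertical axis, miR-10b decoy minus control decoy) with quantile normalized, deposited and median-centred signals, ordered by the quantile normalized value. The deposited values lie below the others for every member, and GDF15 is highest and ALDH1L2 lowest on all 3 scales.

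The promoters of the members are shown because ATF4 acts through a known element. RefSeq promoter windows (GRCh38.p14), the 250 bases before each gene start, were found for 34 of the 43 members and searched on both strands for TGATGNAA, the core of the C/EBP-ATF composite element, and for TGACGTCA, the cAMP response element. A match of one pattern cannot share a base with a match of the other, but a window may hold both. TGATGNAA stood in a window of 8 of the 34 members (23.5%), against 3.89% of all 27305 genes. By window it stood in 14.5% of 55 member windows, against 3.14% of all 35116 windows. It was present in 4 of 14 higher members, 1 of 7 lower members and 3 of 12 that did not pass. The members were chosen as genes of this response, so their high share says nothing about these arrays. TGACGTCA stood in 1 of 34 members, PPP1R15A, against 2.03% of all genes. By window it stood in 1.82% of member windows, against 1.65% of all windows. A match describes the letters and shows no binding, and a member without a match may hold the element outside the 250 bases searched. The first 4 stretches below are those of the higher members with TGATGNAA. Those of ASNS, CHAC1 and PPP1R15A were added after their values were seen, since ASNS and CHAC1 hold the element without a rise. FGF21 (log2 difference 0.85) and SLC1A5 (0.03), which did not pass, also hold TGATGNAA and are not printed. Capitals mark the match, and each sequence runs 5′ to 3′ along the strand of its gene.
ATF3: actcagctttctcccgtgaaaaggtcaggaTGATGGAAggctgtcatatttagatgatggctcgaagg
CEBPG: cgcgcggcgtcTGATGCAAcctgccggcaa
JDP2: atagccggggcTGATGCAAcccgtccc
SLC1A3: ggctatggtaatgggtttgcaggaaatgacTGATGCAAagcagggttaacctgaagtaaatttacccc
ASNS: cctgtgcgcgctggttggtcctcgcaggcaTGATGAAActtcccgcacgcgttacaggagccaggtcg
CHAC1: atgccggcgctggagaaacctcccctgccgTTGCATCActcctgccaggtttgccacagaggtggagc
PPP1R15A: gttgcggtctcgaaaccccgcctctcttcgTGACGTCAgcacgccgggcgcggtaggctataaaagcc
The ATF3 stretch lies at chr1:212565186-212565253, that of CEBPG at chr19:33374060-33374089 and that of JDP2 at chr14:75427995-75428021, all on the plus strand. The SLC1A3 stretch is chr5:36596338-36596405 (plus strand), that of ASNS chr7:97872439-97872506 (minus strand), that of CHAC1 chr15:40953232-40953299 (plus strand) and that of PPP1R15A chr19:48872333-48872400 (plus strand). In CHAC1 the element reads on the strand opposite to the gene. The first base of the match lay 68 bases before the ASNS start, 42 before the CEBPG start, 16 before the JDP2 start and 58 before the PPP1R15A start. It lay farther out in CHAC1 (209 bases), ATF3 (191 bases) and SLC1A3 (220 bases). CEBPG and JDP2 each have another listed start upstream of the match, so that their stretches were kept short.

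All 8 transcription factors of the response were higher. ATF4 had signals of 5311, 5625 and 5756 in miR-10b decoy arrays, against 4296, 3875 and 4008 in control decoy arrays. The groups did not overlap, and the log2 difference was 0.45 (SE 0.05, limma adjusted p = 4.18e-05). ATF3, a stress-induced factor that ATF4 activates, had 2653, 2853 and 3805 with the miR-10b decoy and 1215, 1283 and 1360 with the control decoy. Its difference of 1.25 (SE 0.11, adjusted p = 7.06e-06) was the largest among the factors, and miR-10b decoy replicate 3 was the highest array. Of its other probe sets 1 had 0.54 and 1 had -0.06, and averaging all of them ended the call (0.58, adjusted p = 0.0815).

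NUPR1, a small stress-induced chromatin protein, averaged 1088 ± 27.6 with the miR-10b decoy and 617 ± 37.1 with the control decoy (SD, n = 3 each), a difference of 0.81 (SE 0.07). ATF5, a relative of ATF4 that also responds to mitochondrial stress, rose by 0.57 (SE 0.09), CEBPG, a C/EBP protein that pairs with ATF4, by 0.56 (SE 0.07) and JDP2, a bZIP repressor, by 0.57 (SE 0.11). The calls of these 4 genes held under all 16 alternatives run, among them the omission of each array in turn. DDIT3 encodes CHOP, a factor linked to cell death under prolonged stress. It had signals of 3725, 3483 and 3982 with the miR-10b decoy and 2928, 3030 and 2980 with the control decoy, without overlap, a modest difference of 0.32 (SE 0.05, adjusted p = 0.000677). CEBPB, a partner of ATF4, had the smallest difference, 0.23 (SE 0.03, adjusted p = 0.000432), from 8663 ± 27.8 with the miR-10b decoy and 7407 ± 172 with the control decoy (SD, n = 3 each). Among further probe sets above the filter level, those of CEBPG and JDP2 shared the direction, whereas those of ATF5 had 0.97 and -0.18.

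**Figure D3:**
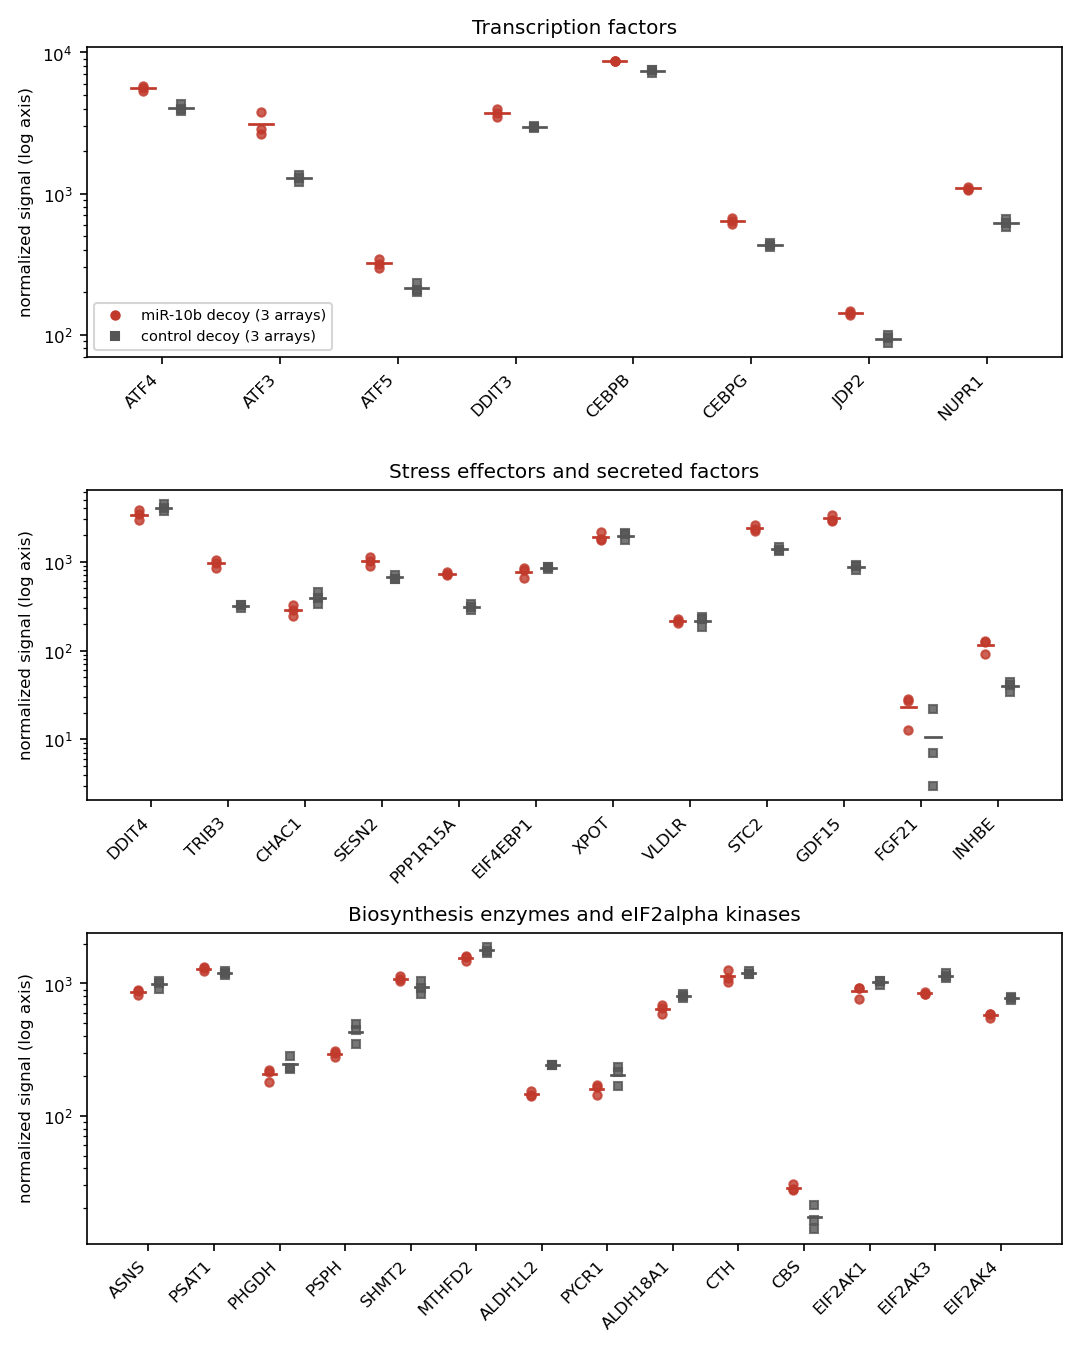
Quantile normalized signal (vertical log axis) of each array for the factors, the stress effectors with the secreted factors, and the enzymes with the kinases; red circles are miR-10b decoy arrays, grey squares control decoy arrays and lines their means. TRIB3, PPP1R15A, GDF15 and INHBE show wide gaps between the groups, while FGF21 overlaps and is dim.

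Among the 8 stress effectors TRIB3, PPP1R15A and SESN2 were higher and CHAC1 and DDIT4 lower. TRIB3, a pseudokinase that inhibits ATF4 and DDIT3, had 964, 843 and 1056 with the miR-10b decoy and 300, 328 and 323 with the control decoy. That was a 3.01-fold ratio of mean signals and a log2 difference of 1.56 (SE 0.09, adjusted p = 4.16e-07), which ranked 28 by p among all tested genes. PPP1R15A encodes GADD34, the phosphatase subunit that removes phosphate from eIF2, and its signals were 719, 759 and 715 with the miR-10b decoy, against 313, 334 and 288 with the control decoy. Its difference was 1.21 (SE 0.08, adjusted p = 1.1e-06), and the other PPP1R15A probe set had 1.63. SESN2, a sestrin that restrains mTORC1 when leucine is short, rose by 0.59 (SE 0.09, adjusted p = 0.000357), with 0.47 on its other probe set. The calls of TRIB3, PPP1R15A and SESN2 held under all 16 alternatives.

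CHAC1, which degrades glutathione and is a classic target of ATF4 and ATF3, had 288, 322 and 243 with the miR-10b decoy and 451, 331 and 388 with the control decoy. Its miR-10b decoy replicate 2 lay just under control replicate 2, and the difference was -0.45 (SE 0.13, adjusted p = 0.0166). Omitting miR-10b decoy replicate 3 (adjusted p = 0.0636) or control decoy replicate 1 (adjusted p = 0.0702) ended the CHAC1 call, which also ended with no intensity trend (adjusted p = 0.0784) and without moderation (adjusted p = 0.151). DDIT4 (REDD1), an mTORC1 inhibitor also induced by hypoxia, had 3776, 3396 and 2973 with the miR-10b decoy and 4433, 4012 and 3687 with the control decoy. These groups overlapped, and the DDIT4 difference of -0.26 (SE 0.08, adjusted p = 0.0312) lost its call in 8 of 16 alternatives. They included leaving out miR-10b decoy replicate 2 (adjusted p = 0.0697) or 3 (adjusted p = 0.114) or control decoy replicate 1 (adjusted p = 0.119) or 2 (adjusted p = 0.073). EIF4EBP1, a translation repressor, had -0.16 (SE 0.09), the tRNA exporter XPOT -0.04 (SE 0.08) and the lipoprotein receptor VLDLR -0.01 (SE 0.11), and these 3 did not pass.

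Of the 4 secreted factors 3 were higher, and GDF15 had the largest difference of all tested members. GDF15, a cytokine that signals to the brainstem and is induced by ATF4, DDIT3 and p53, had 2865, 2976 and 3367 with the miR-10b decoy and 810, 906 and 895 with the control decoy. Its log2 difference of 1.81 (SE 0.07, adjusted p = 2.4e-08) ranked 7 by p among all tested genes, on a probe set whose suffix marks possible cross-hybridisation, as do those of SLC38A2 and SLC1A4. The other 2 GDF15 probe sets had 1.43 and 0.93, the last one under the filter level. The one with 1.43 lay above that level only through the miR-10b decoy group, which averaged 25.3, against 6.80 in the control decoy group. INHBE, an activin subunit, had 125, 91.3 and 129 with the miR-10b decoy and 34.1, 40.9 and 44.4 with the control decoy, without overlap, a difference of 1.38 (SE 0.17, adjusted p = 0.000115). STC2, a stanniocalcin glycoprotein, averaged 2382 ± 162 with the miR-10b decoy and 1380 ± 68.5 with the control decoy (SD, n = 3 each), a difference of 0.78 (SE 0.06), but its second probe set had -0.05. FGF21, a metabolic hormone, was dim, with 12.8, 27.2 and 28.7 against 2.96, 7.12 and 22.1 in control decoy arrays. Its difference of 0.85 (SE 0.45, adjusted p = 0.169) did not pass. FGF21 was above the filter level of 15.6 only through the miR-10b decoy group, which averaged 22.9, against 10.7 in the control decoy group. Control decoy replicate 3 was the only control array above that level, and leaving it out gave 1.27 (adjusted p = 0.0496), a value that rests on that omission.

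Of the 11 enzymes SHMT2 was higher, PSPH, ALDH1L2, MTHFD2 and ALDH18A1 were lower and 6 did not pass. ASNS, which makes asparagine and is a textbook ATF4 target, had 877, 824 and 888 with the miR-10b decoy and 910, 1035 and 1011 with the control decoy. Every miR-10b decoy array lay below every control array, yet the difference of -0.19 (SE 0.07, adjusted p = 0.0523) missed the threshold, and passed without control decoy replicate 1 (adjusted p = 0.0233) and when only genes above the 50th percentile were tested (adjusted p = 0.0419). In the serine pathway, PHGDH, which takes the entry step, had -0.25 (SE 0.12, adjusted p = 0.127), and PSAT1, the aminotransferase, had 0.11 (SE 0.06, adjusted p = 0.175). PSPH, the phosphatase of the last step, had 300, 277 and 307 with the miR-10b decoy and 446, 492 and 350 with the control decoy, and fell by 0.52 (SE 0.11, adjusted p = 0.00439). Of its other probe sets 1 shared the sign (-0.13) and 1 did not (0.88). The PSPH value turned to 0.08 when its probe sets were averaged, and the call ended without moderation (adjusted p = 0.0865).

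ALDH1L2, a mitochondrial enzyme that oxidises formyl-tetrahydrofolate, had 144, 141 and 153 with the miR-10b decoy and 242, 244 and 241 with the control decoy. At -0.71 (SE 0.09, adjusted p = 0.000142) it was the largest fall among the members, with -0.79 on another probe set and 0.69 on one under the filter level. Averaging its probe sets ended the ALDH1L2 call (-0.27, adjusted p = 0.273). MTHFD2, the mitochondrial methylene-tetrahydrofolate dehydrogenase, had -0.19 (SE 0.06, adjusted p = 0.0301), a call that ended on both other scalings (adjusted p = 0.0584 as deposited and 0.164 centred). It also ended with no intensity trend (adjusted p = 0.116) or no moderation (adjusted p = 0.106). Omitting miR-10b decoy replicate 1 (adjusted p = 0.104) or control decoy replicate 2 (adjusted p = 0.0724) or 3 (adjusted p = 0.105) ended it as well. SHMT2, which splits serine into glycine in mitochondria, was the one enzyme higher, at 0.23 (SE 0.08, adjusted p = 0.0452). Its call ended in 10 of 16 alternatives, including the omission of any array but control decoy replicate 3 (adjusted p from 0.0696 to 0.170).

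In proline synthesis ALDH18A1, the first enzyme, was lower in every miR-10b decoy array, averaging 643 ± 50.6 with the miR-10b decoy and 806 ± 26.9 with the control decoy (SD, n = 3 each). Its difference of -0.33 (SE 0.07, adjusted p = 0.00502) was shared by its other probe set (-0.42) and held under all 16 alternatives. PYCR1, the last enzyme, had -0.33 (SE 0.13, adjusted p = 0.0715), and passed as deposited (adjusted p = 0.0253) and without control decoy replicate 1 (adjusted p = 0.0131). In transsulfuration CTH, which makes cysteine, had -0.09 (SE 0.08). CBS, which precedes it, was dim at 28.5 ± 1.60 with the miR-10b decoy and 17.2 ± 3.77 with the control decoy (SD, n = 3 each). The CBS difference of 0.57 (SE 0.27, adjusted p = 0.130) did not pass, except with no intensity trend (adjusted p = 0.0229), and was -0.02 when its probe sets were averaged.

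Of the 8 transporters tested SLC3A2, SLC7A11 and SLC1A3 were higher and SLC38A2 was lower. SLC3A2 encodes CD98, the heavy chain shared by several exchangers, and had 913, 996 and 1161 with the miR-10b decoy and 533, 520 and 518 with the control decoy. SLC7A11, the light chain that with CD98 forms the cystine-glutamate exchanger xCT, had 1133, 1214 and 1516 with the miR-10b decoy and 812, 715 and 697 with the control decoy. Neither pair of groups overlapped, and the differences were 0.95 (SE 0.08, adjusted p = 9.32e-06) for SLC3A2 and 0.78 (SE 0.10, adjusted p = 0.000132) for SLC7A11. Further SLC7A11 probe sets had 0.93 and 0.23. SLC1A3, the glial glutamate transporter, had 87.8, 99.3 and 94.9 with the miR-10b decoy and 69.4, 58.2 and 38.0 with the control decoy, a difference of 0.73 (SE 0.19, adjusted p = 0.0114) that did not pass without moderation (adjusted p = 0.103).

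The light chain for large neutral amino acids, SLC7A5, had 1603, 1555 and 1634 with the miR-10b decoy and 1288, 1339 and 1632 with the control decoy. Control replicate 3 reached the miR-10b decoy arrays, and the difference of 0.18 (SE 0.08, adjusted p = 0.112) passed without that array (0.28, adjusted p = 0.00536). The cationic transporter SLC7A1 had 0.07 (SE 0.06), the neutral exchangers SLC1A4 and SLC1A5 had 0.08 (SE 0.11) and 0.03 (SE 0.11), and none of these 3 passed. Their sign turned as deposited, to -0.03, -0.03 and -0.05. SLC38A2 (SNAT2), a sodium-coupled neutral transporter induced by amino acid shortage, was lower, with 4090, 4158 and 4387 against 5115, 5022 and 4994 in control decoy arrays. Its difference of -0.26 (SE 0.04, adjusted p = 0.000614) held under all 16 alternatives, and its other 2 probe sets had -0.41 and -0.54. The glycine transporter SLC6A9 stayed under the filter level, at 22.6, 2.49 and 12.5 with the miR-10b decoy and 20.3, 9.18 and 14.6 with the control decoy.

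Each of the 3 eIF2 kinases among the members was lower, whereas EIF2AK2 (PKR), the kinase that senses double-stranded RNA and no member, was higher. EIF2AK2 had 713, 687 and 766 with the miR-10b decoy and 634, 614 and 568 with the control decoy, without overlap, a difference of 0.25 (SE 0.07, adjusted p = 0.0193) whose call ended as deposited. EIF2AK3 (PERK), the sensor of ER stress, had 826, 832 and 864 with the miR-10b decoy and 1195, 1106 and 1135 with the control decoy. EIF2AK4 (GCN2), which senses uncharged tRNA, had 547, 590 and 586 with the miR-10b decoy and 790, 753 and 779 with the control decoy. The differences, -0.44 (SE 0.06, adjusted p = 0.00019) and -0.43 (SE 0.07, adjusted p = 0.000465), held under all 16 alternatives. EIF2AK1 (HRI), which senses heme and mitochondrial stress, had -0.23 (SE 0.08, adjusted p = 0.0431). Its call ended in 10 of 16 alternatives, among them both other scalings (adjusted p = 0.0616 as deposited and 0.186 centred) and the omission of miR-10b decoy replicate 3 (adjusted p = 0.128) or of control decoy replicate 1 (adjusted p = 0.110), 2 (adjusted p = 0.0648) or 3 (adjusted p = 0.105). A second EIF2AK1 probe set had 0.09.

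Genes around the response were grouped into 7 further lists by function. The counts of every list stand beside 16.6% higher and 17.3% lower among all 13842 tested genes. In the eIF2 and eIF2B machinery 5 of 13 tested were higher and 2 lower, with a median of 0.09. Besides EIF2AK2 they included the reinitiation factor DENR (0.22) and the eIF2 subunits EIF2S2 (0.20) and EIF2S1 (0.23) among the higher, and the eIF2B subunit EIF2B1 (-0.50) and the phosphatase subunit PPP1R15B (-0.18) as the lower. All 5 higher calls ended with the values as deposited, where 1 of the list was lower. Cytosolic aminoacyl-tRNA synthetases, which charge tRNAs and are common ATF4 targets, had 5 higher and 12 not passed of 17 tested, with a median of 0.08 and the smallest p for KARS1 (0.25), YARS1 (0.32) and FARSA (0.45). As deposited 1 synthetase was higher, and after centring 6.

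The ER unfolded protein response was mostly lower. Of 19 tested chaperones, folding enzymes and regulators 15 were lower and 1 was higher, in the same numbers as deposited and after centring, with a median of -0.38. SDF2L1, a cofactor of ER chaperones, had 1228, 1193 and 1054 with the miR-10b decoy and 1930, 1830 and 1991 with the control decoy, a difference of -0.73 (SE 0.07, adjusted p = 1.17e-05). The secreted ER protein MANF had -0.45 and HERPUD1, which serves ER-associated degradation, -0.43. Chosen after their values were seen, the chaperone HSPA5 (BiP) had -0.20 (SE 0.03) and the factor XBP1 -0.48 (SE 0.07), both past the test. The higher gene was ERN1 (IRE1), the kinase and endonuclease that splices XBP1, with 367, 450 and 525 against 294, 302 and 313 in control decoy arrays (0.54, SE 0.11, adjusted p = 0.00356).

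**Figure D4:**
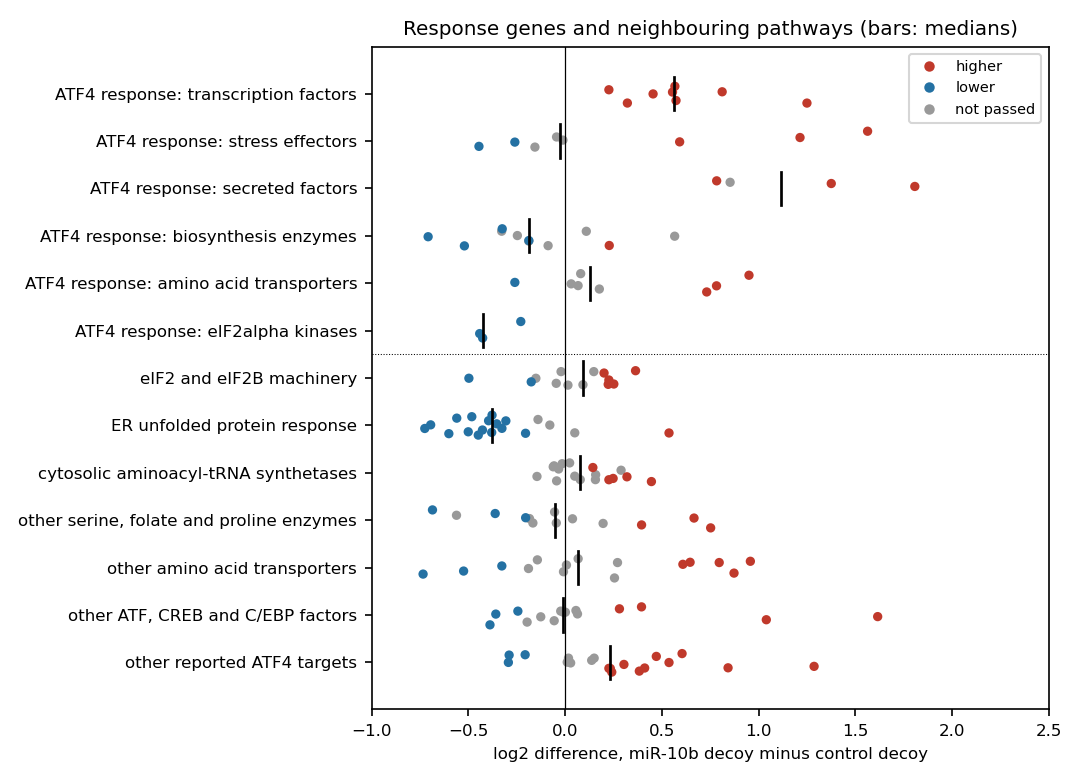
Log2 difference (horizontal axis, miR-10b decoy minus control decoy) of every tested gene in the 6 roles of the response and, under the dotted line, in 7 further lists; black bars are medians, red is higher, blue lower and grey not passed. The ER unfolded protein response has its median at -0.38, while the factors lie at 0.56 and the secreted factors at 1.11.

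Other reported ATF4 targets outside the members had 11 higher and 3 lower of 19 tested, with a median of 0.23, and 5 higher and 3 lower as deposited. SQSTM1, the autophagy receptor p62, had 6113, 6062 and 6705 with the miR-10b decoy and 2578, 2491 and 2650 with the control decoy, a difference of 1.29 (SE 0.05, adjusted p = 2.4e-08). KDM7A, a histone demethylase, had 0.84 and MAP1LC3B, an autophagosome protein, 0.38. The lower ones were LARP6 (-0.29), WIPI1 (-0.29) and PMAIP1 (-0.21). ERN1 and NARS1, both higher, also belong to the ER and synthetase lists.

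The last 3 lists had mixed calls, and whether their counts differ from the 16.6% higher and 17.3% lower among all tested genes was not tested. Among 15 other ATF, CREB and C/EBP factors 4 were higher and 3 lower, with a median of -0.01. CREBRF, a regulator of the CREB3 family, had 554, 459 and 559 with the miR-10b decoy and 177, 174 and 147 with the control decoy, a difference of 1.62 (SE 0.11, adjusted p = 1.17e-06). CEBPZ (0.39) and CREB1 (0.28) were also higher, and CREM (-0.39), ATF2 (-0.36) and CREB3L1 (-0.24) lower. Of 15 further amino acid transporters 5 were higher and 3 lower, with a median of 0.07. The smallest p among the higher were those of SLC38A1 (0.65), SLC38A7 (0.80) and SLC36A1 (0.87), though SLC7A7 had the largest rise (0.96). The lower ones were SLC1A1 (-0.73), SLC6A15 (-0.53) and SLC6A6 (-0.33). The list of further serine, folate and proline enzymes, which also held the transporters SLC25A32 and SFXN1, had 3 higher and 3 lower of 13. Its median was -0.05. MTHFD2L (0.67), GLUL (0.75) and SLC25A32 (0.40) rose, and TYMS (-0.69), MTHFD1 (-0.36) and SFXN1 (-0.20) fell.

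Probe sets that did not stand for their gene gave a check within the arrays. The 43 members had 86 probe sets in all, and 27 members had more than 1. Of 33 other probe sets above the filter level 23 shared the sign of the one that stood for the gene. Among the called members 18 had such a further probe set, and in 13 of them all further ones shared the sign. The GDF15 probe set among these lay above the filter level only through the miR-10b decoy group. The share of such agreement over all genes is not given here, so these counts only describe the members.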

How the data were processed

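Per the submitters' processing notes, MAS5 made the deposited intensities, one linear signal for each of 54675 probe sets on each of 6 arrays. Neither its version nor its target value for scaling was stated in the labels or notes used. Of the probe sets, 41097 carried a single symbol in the platform annotation, 1801 several and 11777 none. The array's 62 control probe sets, most of them without a single symbol, were left out, and the other 41091 with a single symbol stood for 19775 genes. Labelled RNA came from 0.25 µg of total RNA, per the labels. The number of arrays limits the precision.

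Signals were quantile normalized and turned into log2(signal + 7). The filter level, 15.6, was the 30th percentile of the genes' mean signal, and the 13842 genes above it were tested. Groups were compared with limma 3.58.1 (R 4.3.3, lmFit and eBayes with an intensity trend, 7.67 prior against 4 residual degrees of freedom), two-sided, with Benjamini-Hochberg adjustment over all 13842 genes. On simulated data with 200 changed genes among 13842, 68% of 1.5-fold, 92% of 2-fold and 100% of 3-fold rises were recovered. Of falls to 0.5-fold 88% were recovered, and 6.95% of calls were false. The simulated noise was normal with a spread smoothed over intensity, and no normalization step was simulated. On the real arrays 33.9% of genes passed, so these rates do not describe the real calls. Every member is named whatever its value, and of each further list up to 3 genes with the smallest p in each direction. A few others, such as SLC7A7, were named after their values were seen. The members and lists were chosen with earlier results of these data known. Genes whose probe sets carried no single symbol were not analysed here. Arrays were not treated as pairs by replicate number in the main fit, and the closing section gives a fit with a replicate block.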

Additional observations from a re-analysis of the deposited data

How the results depend on the processing

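The 16 alternatives were 2 further scalings, 2 further offsets, 2 further filters, averaging each gene's probe sets, no intensity trend, per-gene variances without moderation, a replicate block and the omission of each array. The calls of 16 of the 28 called members held under all of them, 12 higher and 4 lower. Of 668 member values under alternatives, 600 kept direction and side of the threshold, 46 lost the call, 7 gained it and 15 changed sign. The count of lower members was 6 with the mean of all probe sets, 6 without the intensity trend and 5 without moderation. Over all genes, 1094 were higher as deposited, 1495 were higher and 1576 lower with the mean of all probe sets, and 1453 were higher and 1377 lower without moderation. The cause of these shifts was not tested. Leaving out 1 array gave 17 to 20 higher and 7 to 9 lower members, and 1873 to 2158 higher and 1831 to 2149 lower genes.

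Among values that changed sign, PSPH, the only called member, was 0.0768 with the mean of all probe sets, where CBS was -0.0174 and XPOT 0.0521. As deposited SLC7A1 was -0.0341, SLC1A4 -0.0328 and SLC1A5 -0.0528; centred on the array median XPOT was 0.0035 and VLDLR 0.0728. With 1 array left out, XPOT ran from -0.1288 to 0.0078 (positive without replicate 1 of either group) and VLDLR from -0.1125 to 0.053 (positive without miR-10b decoy replicate 2 or control decoy replicate 1 or 3). SLC1A5 ran from -0.0627 (without control decoy replicate 2) to 0.1267, and was also negative without miR-10b decoy replicate 3.

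The groups share replicate numbers, but the deviations of same-numbered arrays from their group means correlated at only 0.029, -0.027 and -0.011. No shared replicate effect was visible, though these values cannot show whether the arrays were made as pairs. With the replicate block 18 members were higher and 10 lower, and 2224 genes higher and 2333 lower. FGF21, CBS and SLC6A9 lie near the filter level, where an array's signal can fall on either side of it.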
